A study of Mus musculus with 12 samples.

Results

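The cells described here are 3T3-L1 fibroblasts kept under control conditions, the baseline against which a study of atopic dermatitis measured the response to cytokines. They were taken by their label, which marked 3 of the 12 bulk RNA-seq libraries as control, and no measured value was used to choose them. The labels did not describe the control in one way: the sample titles say control, the library names say untreated, and the treatment field says vehicle, with no vehicle named. The genotype was wild type, the cell type was given as fibroblast, and all 12 libraries carried a single batch label. RNA was collected after 24 hours, and the other 3 conditions, which added IL-4 with IL-13, the inflammatory mixture Inf (IL-1β, IL-17A, and TNF-α), or all of these, were not used.

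3T3-L1 is a clonal line derived from mouse embryo cells of the 3T3 type. Growing 3T3-L1 cells have the shape and matrix output of fibroblasts, and after confluence they can be turned into adipocytes by a hormone cocktail, for which reason they also count as preadipocytes. In the skin, fibroblasts of the deep dermis share this relation to adipocytes, build the collagenous matrix, and release chemokines when cytokines bind their receptors. A control profile shows which of those receptors, signalling proteins, and secreted products the line already expressed before any cytokine was added.

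Total counts were 17343972 in replicate 1, 15869141 in replicate 2, and 16694736 in replicate 3. CPM (counts per 1000000 counts) scale the reads on a gene to the total of its library, so that 3 counts, the limit used here for detection, correspond to 0.173 to 0.189 CPM. A count grows with the length of a transcript, and the order of levels between named genes was therefore read from TPM, the same scale for transcripts, in which each count was first divided by the exon length of the gene. That length covers every annotated exon of a gene, over all its transcripts, and can exceed the length of the RNA present. An order per length therefore depends on the annotation. Ranks by CPM and medians of lists in CPM describe how reads were spread and are not corrected for length. Values are given in the order of replicates 1, 2, and 3 or as the mean ± SD of the 3 libraries (n = 3). Nothing in the labels says that the libraries came from separate cultures, so the spread between them may be technical. No test between groups was applied, because there is a single group.

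The control cells expressed a broad set of genes. Of the 56941 genes in the table, 12665 (22.2%) had 1 CPM or more in every library, and 9688 had a mean of 10 CPM or more. At the other end, 32940 genes (57.8%) had 0 counts in all 3 libraries, and 39218 had no more than 3 counts in any library. Among the 21800 genes annotated as protein coding in GENCODE M21, 11060 (50.7%) reached 1 CPM in every library and 6695 (30.7%) had no count. The 10 genes with the most counts together took 5.34 ± 0.0397% of the counts, the 100 with the most took 17.3 ± 0.0688%, and the 500 with the most took 36.0 ± 0.108%. Protein-coding genes held 93.2 ± 0.139% of the counts and pseudogenes held 5.28 ± 0.117%.

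Eef1a1, which encodes the elongation factor that brings aminoacyl-tRNA to the ribosome, took the most counts, with 8525, 8969.8 and 8586 CPM. Mdm2, the ubiquitin ligase that marks p53 for degradation, came next with 8448, 8598 and 8428 CPM. Rn18s, the 18S ribosomal RNA that selection for polyadenylated RNA is meant to remove, had 7113, 7423 and 6789.6 CPM, or 0.711 ± 0.0317% of the counts. The collagen genes Col1a2 and Col1a1, which encode the chains of type I collagen, ranked 4th and 7th by CPM. Hsp90ab1, a cytosolic chaperone, had 4488 ± 20.5 CPM. Actb, which encodes β-actin, had 3996 ± 32.7 CPM, and Vim, which encodes the intermediate filament protein of mesenchymal cells, had 3653 ± 72.4 CPM. The list of 25 also held the matrix genes Bgn, Fbln2, Spp1, Fn1, and Col3a1, the glycolytic enzyme gene Pkm, the iron storage gene Fth1, and the fatty acid desaturase gene Scd2.

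**Figure D1:**
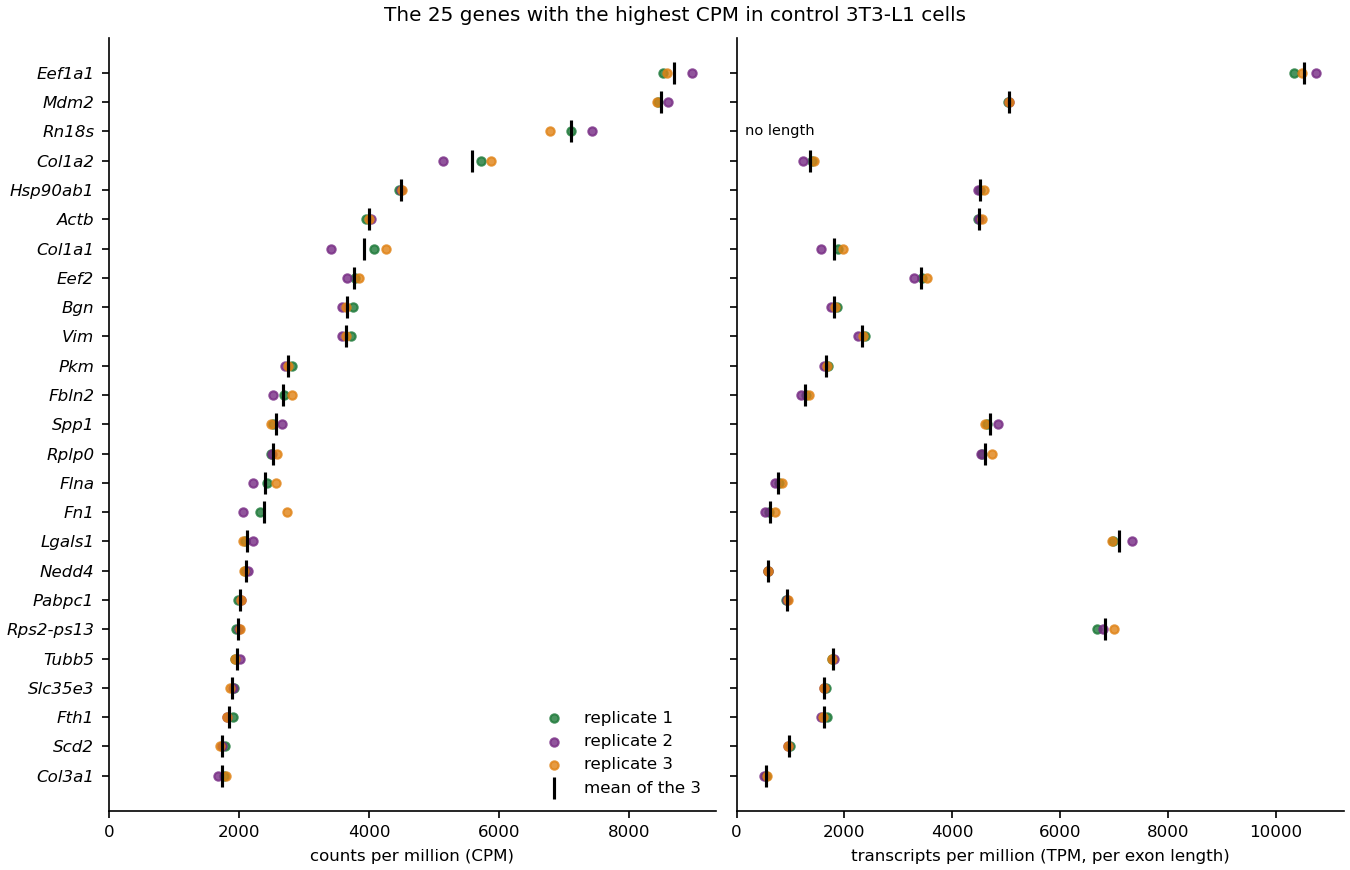
The 25 genes with the most counts, ordered by mean CPM. The left panel plots CPM and the right panel TPM, both on linear axes that start at 0, with 1 point per library and a black mark at the mean. Eef1a1 was first on both scales, Lgals1 was second by TPM, and Col1a2, rank 4 by CPM, was rank 90 by TPM. Rn18s had no exon length and therefore no TPM.

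Correction for length changed the order. Of the 25 genes with the highest CPM, 9 were also among the 25 with the highest TPM. Lgals1, which encodes the small β-galactoside-binding lectin galectin-1, moved from rank 17 by CPM to rank 2 by TPM, with 7089.6 ± 205 TPM. Spp1, which encodes the secreted matrix phosphoprotein osteopontin, had 4699 ± 124 TPM, and Mdm2 had 5043 ± 15.6 TPM. Per length, Mdm2 and Spp1 therefore stood 6th and 7th among the 52000 genes with an exon length. Col1a2, by contrast, had 1357 ± 106 TPM and Col1a1 had 1805 ± 220.3 TPM, so that per length Col1a1 was above Col1a2 although it had fewer counts. The same order held in each library, but the length of a gene is the same in each. This order rests on the length over all annotated exons and may differ with another length.

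Several of the top entries per length were annotated pseudogenes, and their levels are uncertain. Of the 25 genes with the highest TPM, 14 were pseudogenes and 17 shared 50% or more of their 50-base stretches with transcripts of other genes. Rps2-ps13, a processed copy of a ribosomal protein gene, had 1994 ± 39.4 CPM, while the parent gene Rps2 had 13.03 ± 0.493 CPM. Tpt1-ps3 had 1152 ± 41.8 CPM, while Tpt1, the gene of the translationally controlled tumor protein, had 142 ± 14.05 CPM. Eef1a1 itself shared 59.2% of its 50-base stretches with other genes. How reads that match several genes were assigned is not given in the sources used here, and a parent gene and its copies can be read only together.

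The same limit applied to genes often used for normalization. Gapdh, the glycolytic dehydrogenase gene that has many processed copies, had only 22.9, 18.3 and 19.2 CPM, and 27.2% of its 50-base stretches occurred elsewhere. Ppia, the cyclophilin A gene, had 11.1, 8.89 and 6.77 CPM. Of 99 protein-coding genes matched by symbol as cytoplasmic ribosomal proteins, 60 shared 20% or more of their 50-base stretches. The set took 2.14 ± 0.0507% of the counts. The match also takes in genes with a similar symbol, such as the S6 kinase family gene Rps6kc1 at 34.5 CPM. These numbers therefore cover more than ribosomal protein genes. Pseudogenes whose symbols carry a ribosomal protein name took another 1.15 ± 0.0219%. Any copies listed under other symbols are left out of that share. Reference genes with less shared sequence were steady between libraries: Actb had 3961, 4026 and 3999.7 CPM, Tbp, which encodes the TATA-binding protein, had 35.2, 38.6 and 35.8 CPM, and Gusb, the β-glucuronidase gene, had 86.4, 90.8 and 87.8 CPM. Rplp0, with 41.8% of its 50-base stretches shared, was also steady, at 2493, 2512 and 2581 CPM.

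All 37 genes of the mitochondrial genome were listed at 0 in the 3 libraries. Mitochondrial transcripts are polyadenylated and abundant in cultured cells, and nuclear copies of mitochondrial sequence did carry counts: Atp6-ps had 107, 138 and 65.5 CPM and Gm28437 had 93.3, 113 and 56.1 CPM, and all 50-base stretches of both occurred in other genes. No mitochondrial share can be read from this table. The reason for the zeros was not tested.

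Promoters of the expressed and the silent genes differed in composition. Vertebrate promoters are often rich in CpG dinucleotides, and a smaller class carries a TATA box, to which the TATA-binding protein attaches a short distance before the start of transcription. Promoter sequence, from 250 bases before to 50 bases after the start, came from RefSeq (GRCm38.p6), with the first listed start of each gene. The table matched 19441 genes of the count table and 75 of the 100 genes with the most counts. The motif TATAAA was searched on the strand of the gene. Of the 6695 protein-coding genes with 0 counts, 3800 had a promoter here. Among these, 561 of 3800 promoters (14.8%, 95% Wilson interval 13.7 to 15.9%) held TATAAA, whereas 192 of 5329 (3.60%, 3.14 to 4.14%) did so at 10 to 100 CPM. At 1000 CPM or more the count was 7 of 56 (12.5%, 6.19 to 23.6%). Over all 27025 promoters in the table the share was 8.88%.

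The median ratio of observed to expected CpG was 0.228 at 0 counts, 0.371 for genes with a count but under 1 CPM, 0.796 at 10 to 100 CPM, and 0.833 at 100 to 1000 CPM. It was 0.691 at 1000 CPM or more. Median GC content also differed, at 49.7% at 0 counts and 61.3% at 10 to 100 CPM, and the motif shares were not adjusted for it. Within the narrower window of 40 to 20 bases before the start, where a TATA box is bound, 231 of 3800 silent genes (6.08%) and 34 of 5329 genes at 10 to 100 CPM (0.638%) held the motif. Among the 75 promoters of the 100 genes with the most counts, 8 (10.7%, 5.50 to 19.7%) held the motif anywhere and 2 held it in the narrower window. The intervals cover sampling of promoters only, and a match of letters is not a bound site. On the opposite strand, where the motif reads TTTATA, it was held by 275 of 3800 promoters (7.24%) at 0 counts and by 158 of 5329 (2.96%) at 10 to 100 CPM.

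**Figure D2:**
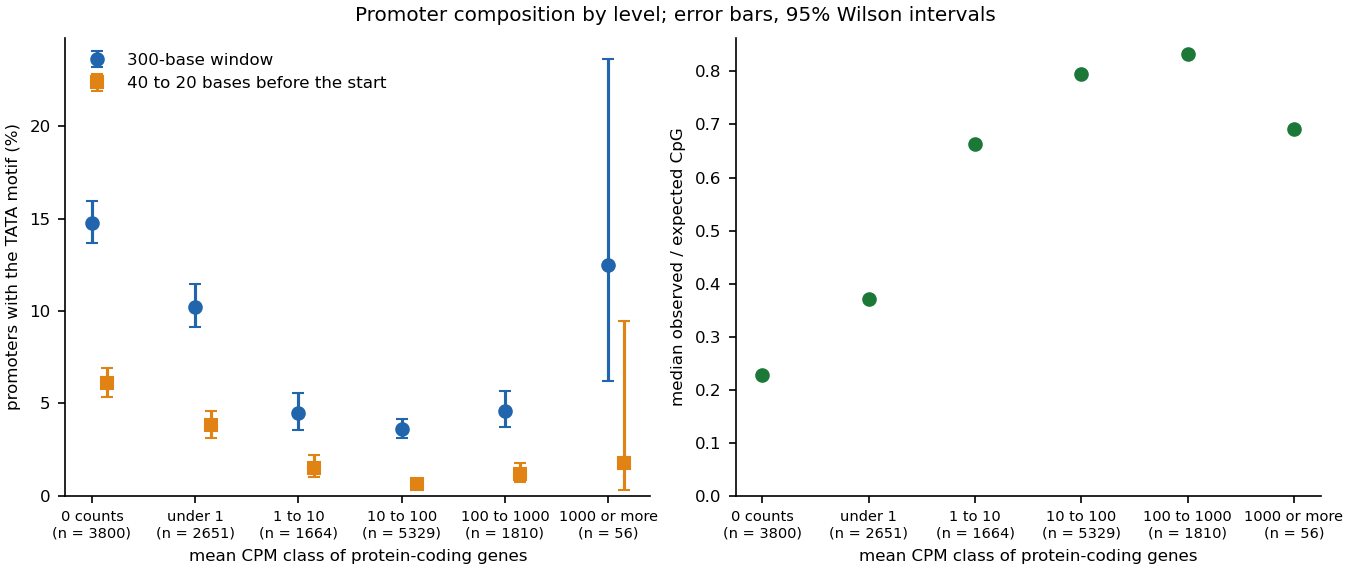
The left panel plots the percentage of protein-coding promoters with the TATA motif, in the whole 300-base window and from 40 to 20 bases before the start, by class of mean CPM, with 95% Wilson intervals. The right panel plots the median ratio of observed to expected CpG. The share of promoters with the motif was highest at 0 counts and lowest at 10 to 100 CPM in both windows. In the whole window the interval of the 56 genes at 1000 CPM or more (6.19 to 23.6%) overlapped that at 0 counts and not that at 10 to 100 CPM.

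The 2 genes with the motif in the narrower window were Vim, with 3653 ± 72.4 CPM, and Anxa1, of the phospholipid-binding protein annexin A1, with 853, 892 and 848 CPM. Their promoters are shown because both encode abundant products of the control cells and carry the motif at the same distance, 32 to 27 bases before the start. Each line gives the 60 bases that end immediately before the start, 5′ to 3′ on the strand of the gene, with the motif in capitals. The Vim sequence is chr2:13574251-13574310 on the plus strand, and the Anxa1 sequence is chr19:20390672-20390731 on the minus strand (GRCm38.p6).
Vim: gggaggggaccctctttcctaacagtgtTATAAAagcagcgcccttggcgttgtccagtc
Anxa1: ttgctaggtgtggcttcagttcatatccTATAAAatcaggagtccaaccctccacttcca

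Genes near Mdm2 differed widely in level, and why Mdm2 was high was not tested. On chromosome 10, the next protein-coding gene in RefSeq order on one side was Cpm, a carboxypeptidase gene, with 4.44, 3.84 and 3.35 CPM. Beyond Cpm, Cpsf6 had 132.9, 135.5 and 125.8 CPM. The next gene to Mdm2 on the other side was Slc35e3, a nucleotide sugar transporter family gene, with 1926, 1902 and 1869 CPM, which placed it 22nd by CPM. Beyond Slc35e3, the nuclear pore gene Nup107 had 137, 136 and 129.7 CPM and the small GTPase gene Rap1b had 218, 229 and 206 CPM. Per length, Slc35e3 stood at 1626 ± 22.4 TPM, Rap1b at 228 ± 10.2 TPM, Nup107 at 105 ± 2.57 TPM, and Cpm at 1.96 ± 0.271 TPM. Mdm2 shared 0.291% of its 50-base stretches with other genes and overlapped none. Nedd4, which encodes another ubiquitin ligase and lies on another chromosome, also ranked among the 25, with 2107 ± 30.2 CPM.

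Around Mdm2, the genes of growth arrest and the cell cycle were expressed side by side. Trp53, the p53 gene, had 271, 263 and 261 CPM, and Cdkn2a, whose products restrain MDM2 and the cyclin D kinases, had 447, 435 and 441 CPM. Cdkn1a, the p21 gene and a target of p53, had 196, 195 and 201 CPM. Gas1, named for its expression in growth-arrested fibroblasts, had 477, 448 and 427 CPM. Of the 15 genes on the growth arrest list, 14 reached 1 CPM in every library, and Cdkn1c, which encodes the p57 inhibitor, had no count. That list also holds Mdm2 and Myc, which do not themselves arrest growth, so its count and median cover more than arrest genes.

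All 24 genes of the proliferation list reached 1 CPM in every library, beside 14 of 15 for growth arrest and 50.7% of all protein-coding genes. The median was 125 CPM, beside 97.7 CPM for the growth arrest list and 38.3 CPM over protein-coding genes at 1 CPM or more. Mki67, which encodes the Ki-67 antigen of cycling cells, had 222, 219 and 240.3 CPM. Top2a, the topoisomerase of replicating and mitotic cells, had 333, 351 and 342 CPM, and Cdk1, the mitotic kinase gene, had 144, 159 and 161 CPM. The cyclin D genes Ccnd1 and Ccnd2 had 694 ± 21.03 and 654 ± 19.7 CPM. In bulk RNA, a smaller number of cycling cells and less RNA per cycling cell cannot be told apart.

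Markers of the labelled cell type were present. Of the 16 fibroblast markers, 15 reached 1 CPM in every library, beside 50.7% of all protein-coding genes. The list median was 151 CPM, beside 38.3 CPM over protein-coding genes at 1 CPM or more. The exception was Tcf21, a transcription factor gene of some mesenchymal lineages, with 0 counts in every library. Pdgfra and Pdgfrb, the genes of the platelet-derived growth factor receptors, had 200.1, 196 and 197 CPM and 285, 247 and 281 CPM. Thy1, a surface glycoprotein gene used to sort fibroblasts, had 506, 491 and 504 CPM. Prrx1, a homeobox gene of limb and skin mesenchyme, had 462, 461 and 441 CPM, and Twist1, a transcription factor gene of mesenchyme, had 42.5, 49.97 and 42.05 CPM.

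Defining genes of other cell types were at or near 0. Of the listed markers, 3 of 12 for macrophages, 1 of 8 for T cells, 2 of 8 for keratinocytes, 1 of 8 for skeletal muscle, and 2 of 8 for neural and glial cells reached 1 CPM in every library. Each of these shares was below the 50.7% of all protein-coding genes. Ptprc, which encodes the leukocyte antigen CD45, had 0, 0 and 4 counts, and the macrophage genes Adgre1, Tyrobp, and C1qa and the T cell genes Cd3e, Cd3d, and Cd8a had none in any library. None of the 8 endothelial and none of the 8 mast cell and granulocyte markers reached 1 CPM in every library. Their summed levels were 0.885 ± 0.130 CPM and 0.0612 ± 0.0631 CPM. Pecam1, the endothelial adhesion molecule gene, had 1, 2 and 1 counts, and the keratinocyte gene Krt5 and the muscle regulator genes Myod1 and Myog had none.

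Single members of these lists were nevertheless present. Cd14, the endotoxin co-receptor gene on the macrophage list, had 15.8, 13.4 and 15.8 CPM, and Csf1r, the receptor gene for colony-stimulating factor 1, had 4.32, 3.21 and 3.17 CPM. Trp63, which encodes the epidermal transcription factor p63, had 5.94, 4.79 and 5.45 CPM, and Tubb3, a β-tubulin gene on the neural list, had 5.54, 6.55 and 5.51 CPM. On the list for cartilage and bone, Runx2, the regulator of osteoblast fate, had 57.9, 50.5 and 53.9 CPM and Sox9, the regulator of cartilage fate, had 56.8, 50.3 and 56.4 CPM. The cartilage genes Col2a1 and Acan had 3, 3 and 7 counts and 3, 2 and 2 counts, and the bone genes Ibsp and Alpl had none. Spp1, a matrix gene that bone cells also express, was high, at 2565 ± 92.01 CPM.

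**Figure D3:**
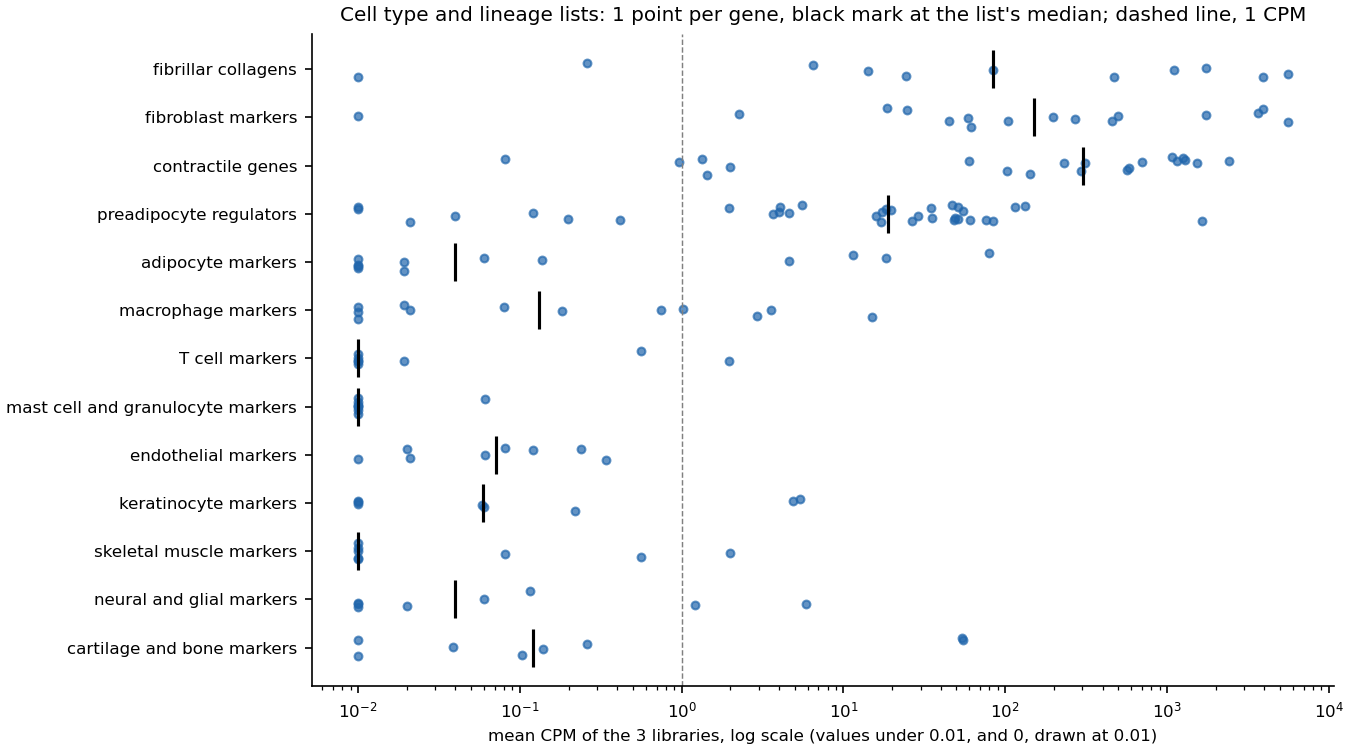
Mean CPM of the 3 libraries on a log axis for each gene of 13 lists, with 1 point per gene, vertical jitter for legibility, and a black mark at the median of the list. The medians of the fibrillar collagen, fibroblast, contractile, and preadipocyte lists lie above the dashed line at 1 CPM, and the medians of the adipocyte list and of the 8 lists for other cell types lie below it.

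Genes of the extracellular matrix were widely expressed. Collagens are secreted as triple helices, cut and cross-linked outside the cell, and bound by glycoproteins and proteoglycans. The 11 fibrillar collagens, 32 other collagens, 48 glycoproteins, and 27 proteoglycans listed took 4.10 ± 0.220% of the counts, with 4.17, 3.85, and 4.27% in the 3 libraries. Replicate 2 had the lowest share. Corrected for length, the same genes took 2.19% of the TPM. Among the 118 genes, 9 fibrillar collagens, 15 other collagens, 40 glycoproteins, and 16 proteoglycans reached 1 CPM in every library. Over all protein-coding genes the share was 50.7%, and the other collagens were below it.

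Among fibrillar collagens, type I had the most counts. Col1a2 had 5723, 5145 and 5876 CPM and Col1a1 had 4084, 3418 and 4258 CPM, with both lowest in replicate 2. Col3a1, of the type III collagen that forms finer fibrils with type I, had 1768, 1673 and 1797 CPM. Type V collagen, which sets the diameter of type I fibrils, was represented by Col5a2 at 1129.8, 1064 and 1108 CPM, Col5a1 at 468, 422 and 525 CPM, and Col5a3 at 88.3, 73.9 and 89.5 CPM. Col2a1, the main collagen of cartilage, stayed at 3, 3 and 7 counts, and Col24a1 had none. Per length over all annotated exons, the order was Col1a1 at 1805 ± 220.3 TPM, Col1a2 at 1357 ± 106 TPM, Col3a1 at 537 ± 25.02 TPM, and Col5a2 at 347 ± 13.2 TPM. Col1a1 was above Col1a2 in each library, with the same lengths used in each.

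The basement membrane and microfibrillar collagens were also expressed. Col4a1 and Col4a2, which encode the broadly expressed chains of type IV collagen, had 1658, 1483 and 1672 CPM and 1074, 943 and 1104 CPM. The chains of other type IV networks differed from these: Col4a5 had 203, 203 and 197 CPM, whereas Col4a3 had 1, 0 and 6 counts and Col4a4 had 1, 4 and 1 counts. Of type VI collagen, Col6a1 had 1259.6 ± 83.7 CPM, Col6a2 had 983 ± 63.9 CPM, and Col6a3 had 360.1 ± 46.8 CPM, while Col6a5 and Col6a6 each had at most 2 counts in a library. Col14a1, a fibril-associated collagen gene of dermis and tendon, had 0, 3 and 5 counts.

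Among glycoproteins, Fbln2, which encodes a fibulin of elastic fibers and basement membranes, had 2696, 2530.3 and 2818 CPM and Spp1 had 2529, 2669.8 and 2497 CPM. Fn1, the fibronectin gene, had 2329.8, 2064 and 2741 CPM, with the highest value in replicate 3. Sparc, a collagen-binding glycoprotein gene, had 1729, 1733 and 1735 CPM, and Thbs1, the thrombospondin 1 gene, had 844, 779 and 858 CPM. Postn, the periostin gene that IL-13 is known to induce in fibroblasts, already had 450.2, 419 and 425 CPM, and Tnc, the tenascin C gene, had 229, 191 and 249 CPM. Eln, the gene of elastin itself, had no count in any library, although Fbn1, the gene of the fibrillin scaffold of elastic fibers, had 129, 117 and 153 CPM and the lysyl oxidase gene Lox had 964, 951 and 969.5 CPM.

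The small leucine-rich proteoglycans were uneven. Bgn, the biglycan gene, had 3755, 3581 and 3645 CPM, whereas Dcn, the decorin gene and a common marker of dermal fibroblasts, had 103, 109.8 and 99.6 CPM and Lum, the lumican gene, had 2.08, 2.65 and 2.10 CPM. Per length, Bgn stood at 1812 ± 54.3 TPM, Dcn at 53.8 ± 2.17 TPM, and Lum at 2.80 ± 0.373 TPM, and the ranges of the 3 genes did not overlap. Vcan, which encodes the large hyaluronan-binding proteoglycan versican, had 585, 563 and 649.8 CPM, and the cartilage gene Acan had 3, 2 and 2 counts.

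Of the 21 collagen-modifying enzymes, 20 reached 1 CPM in every library, beside 50.7% of all protein-coding genes. The list median was 179 CPM. Serpinh1, the chaperone that holds procollagen in its triple helix, had 1479, 1439.7 and 1483 CPM, and P4hb, a subunit of the prolyl hydroxylase, had 1287 ± 27.9 CPM. The exception was Loxl2, a lysyl oxidase family gene with 4, 14 and 14 counts, which shared 45.8% of its 50-base stretches. Among proteases, Mmp2 and Mmp14, the gelatinase A gene and its membrane-bound activator, had 384 ± 13.1 and 354 ± 7.47 CPM, whereas Mmp13, an interstitial collagenase gene, had 11, 11 and 16 counts. The inhibitor genes Timp1 and Timp2 had 228 ± 14.2 and 800.4 ± 14.97 CPM.

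The contractile genes showed a split within the smooth muscle program. Acta2, which encodes α-smooth muscle actin and marks myofibroblasts, had 1313, 1287 and 1281 CPM. The smooth muscle genes Tagln and Cnn1, of transgelin and calponin 1, had 0.865, 1.51 and 1.92 CPM and 0.865, 1.01 and 1.02 CPM, and Myh11, of smooth muscle myosin, had 0, 1 and 3 counts. Tagln overlapped another gene over 67.9% of its exons when strand is ignored, and whether the counting used strand is not given, so that its count is uncertain. Genes of the general actin machinery were expressed, among them Flna at 2405 ± 177 CPM, Tpm4 at 1538 ± 47.98 CPM, and Myh9 at 1148 ± 106 CPM.

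Most adipocyte markers were not detected. Of the 12 adipocyte markers, 4 reached 1 CPM in every library, and 7 stayed at 3 or fewer counts. Over all protein-coding genes these shares were 50.7% and 40.2%. The hormone genes Adipoq and Lep, the complement factor D gene Cfd, and the gluconeogenic enzyme gene Pck1 had no count in any library, which allows up to 0.189 CPM. Lpl, the lipoprotein lipase gene, had 79.6, 81.4 and 78.8 CPM, and Fabp4, the fatty acid carrier gene, had 12.3, 10.9 and 11.02 CPM. Slc2a4, the gene of the insulin-regulated glucose transporter, had 5, 1 and 1 counts and Plin1, of the lipid droplet coat, had 1, 0 and 0 counts.

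The regulators of adipogenesis were present at moderate levels. Dlk1, the gene of preadipocyte factor 1, which is lost when these cells differentiate, had 1665, 1577 and 1688 CPM and 877 ± 39.6 TPM. Pparg, the nuclear receptor gene that drives adipocyte differentiation, had 19.1, 17.6 and 17.8 CPM, and its partner Cebpa had 6.40, 3.78 and 3.65 CPM. The earlier factors Cebpb and Cebpd had 20.99, 20.1 and 17.8 CPM and 38.7, 33.6 and 33.96 CPM. Per length, Pparg stood at 18.6 ± 0.893 TPM and Cebpa at 5.28 ± 1.78 TPM, and Cebpb at 39.4 ± 3.12 TPM. Nr3c1, the glucocorticoid receptor gene, had 136, 130.4 and 130.4 CPM. In all, 27 of 34 listed regulators reached 1 CPM in every library, beside 50.7% of all protein-coding genes. The list median was 18.9 CPM, below the 38.3 CPM over protein-coding genes at 1 CPM or more. The beige adipocyte regulator Prdm16 and the WNT antagonist Sfrp1 had no count, and the progenitor surface genes Icam1 and Dpp4 had 0, 1 and 0 counts and 0, 0 and 2 counts.

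The receptors for the cytokines that the study later added differed in which chains were expressed. IL-4 signals through IL-4Rα paired with either the common γ chain or IL-13Rα1, and IL-13 through IL-4Rα with IL-13Rα1, while IL-13Rα2 binds IL-13 without the usual signal. Il4ra had 54.3, 54.9 and 49.2 CPM and Il13ra1 had 60.4, 58.8 and 57.1 CPM. Il2rg, the common γ chain gene, had 10, 14 and 17 counts, or 0.826 ± 0.226 CPM, and shared 42.01% of its 50-base stretches. Il13ra2 had 6, 8 and 5 counts, or 0.383 ± 0.107 CPM. Both chains of the receptor that binds IL-4 and IL-13 were thus above 1 CPM in every library, and the other 2 chains were below 1 CPM in at least 2 libraries.

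Per length, Il13ra1 stood at 49.2, 47.3 and 46.9 TPM and Il4ra at 27.3, 27.4 and 24.99 TPM, so that Il13ra1 was higher in each library. All 14 genes listed for the signalling of this receptor reached 1 CPM in every library, beside 50.7% of all protein-coding genes. Their median was 44.8 CPM, beside 38.3 CPM over protein-coding genes at 1 CPM or more. Stat6, the transcription factor that IL-4Rα recruits, had 92.6, 90.7 and 90.9 CPM. The kinase genes Jak1, Tyk2, and Jak2 had 289 ± 5.50, 36.9 ± 1.47, and 44.6 ± 2.13 CPM. Jak3, the kinase gene that pairs with the common γ chain in leukocytes, had 27.6, 24.9 and 24.3 CPM. The feedback inhibitor genes Socs1 and Cish had 13.6 ± 1.52 and 2.66 ± 1.01 CPM.

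**Figure D4:**
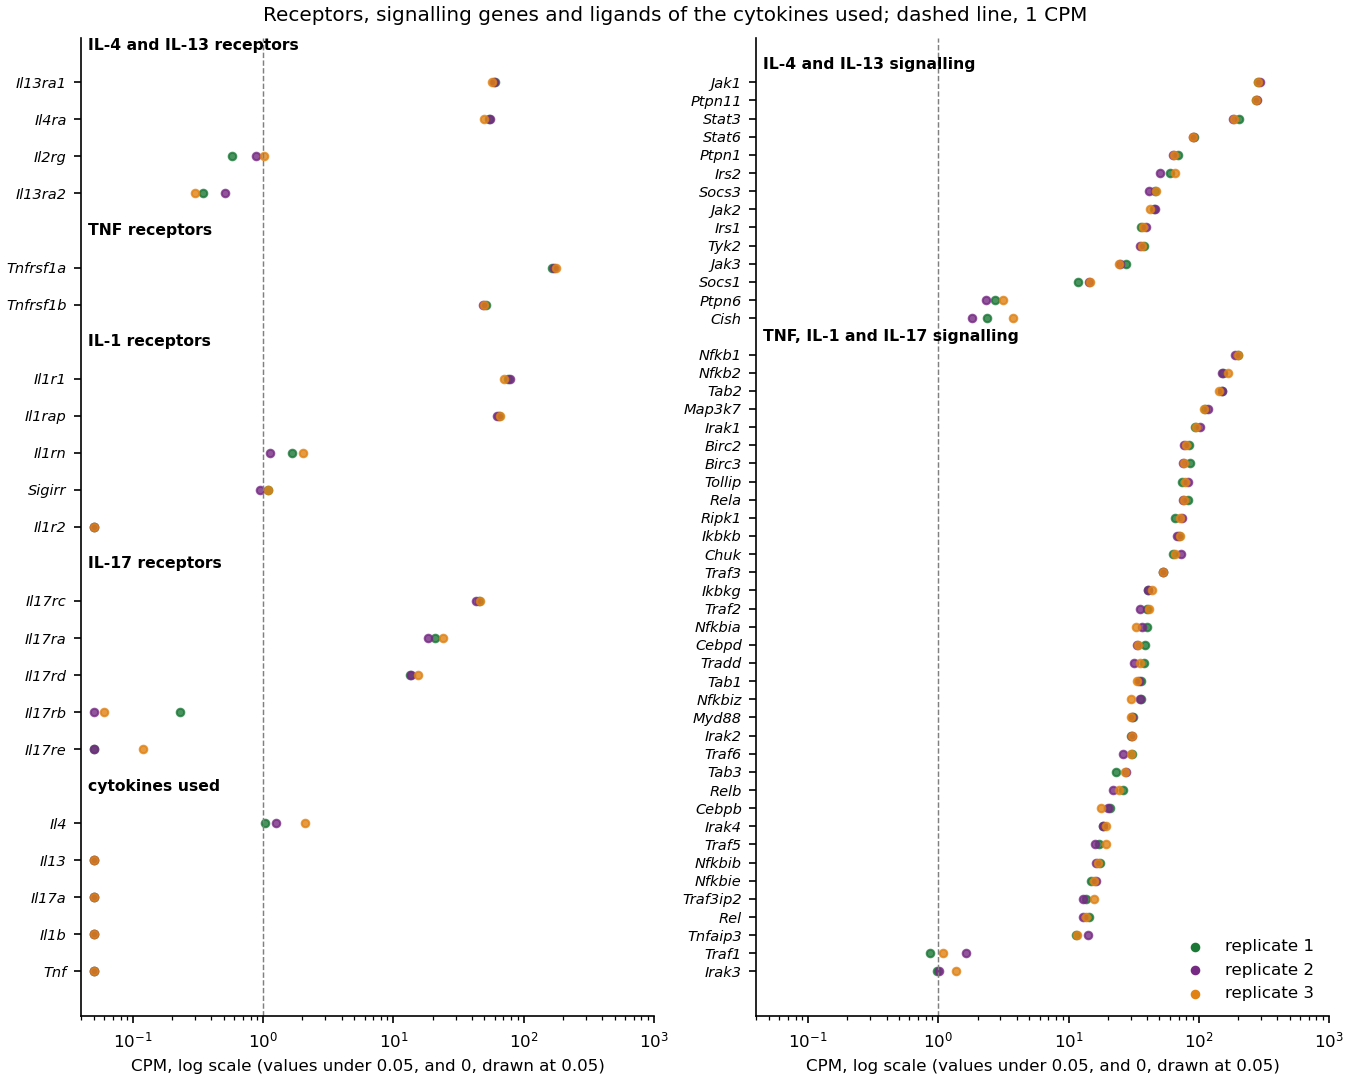
CPM on a log axis for the receptors and ligands of the cytokines used (left) and for their signalling genes (right), with 1 point per library. Values under 0.05, including 0, are drawn at 0.05. Il4ra, Il13ra1, both TNF receptor genes, Il1r1, Il1rap, Il17ra, Il17rc, and Il17rd lie above 10 CPM in every library, and Il13, Tnf, Il17a, and Il1b lie at 0.

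Of the 2 TNF receptors, Tnfrsf1a, the broadly expressed death domain receptor gene, had 167, 170.4 and 178 CPM and Tnfrsf1b had 50.97, 48.5 and 49.9 CPM. Their levels per length were 200.2 ± 8.19 and 39.4 ± 1.25 TPM and did not overlap. Il1r1, the signalling receptor gene for IL-1, had 75.6, 78.7 and 70.7 CPM and its accessory chain Il1rap had 64.7, 62.4 and 65.5 CPM. The decoy receptor gene Il1r2 had no count, and the antagonist gene Il1rn had 29, 18 and 34 counts. IL-17A binds a complex of IL-17RA and IL-17RC, whose genes Il17ra and Il17rc had 20.8, 18.5 and 23.8 CPM and 45.4, 42.9 and 46.3 CPM. Il17rd had 13.3, 13.7 and 15.5 CPM, whereas Il17rb and Il17re, of receptors for other IL-17 family members, had 4, 0 and 1 counts and 0, 0 and 2 counts.

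Most listed genes of the pathway from these receptors to NF-κB were expressed. Of 35 listed genes, 33 reached 1 CPM in every library, beside 50.7% of all protein-coding genes. The list median was 35.05 CPM, not above the 38.3 CPM over protein-coding genes at 1 CPM or more. Traf3ip2, the adaptor gene of IL-17 receptors, had 13.7, 12.9 and 15.6 CPM, and Myd88, the adaptor gene of IL-1 and Toll-like receptors, had 31.5, 30.7 and 30.01 CPM. Rela and Nfkb1, of the NF-κB subunits p65 and p50, had 78.4 ± 3.51 and 197 ± 5.49 CPM. The genes of the inhibitors Nfkbia and Tnfaip3 had 39.8, 36.9 and 32.8 CPM and 11.4, 14.1 and 11.6 CPM. The exceptions were Traf1, an NF-κB target, with 15, 26 and 18 counts and Irak3, an inhibitory kinase gene, with 17, 16 and 23 counts.

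The control cells made little or no RNA for the cytokines themselves. Il13, Tnf, Il17a, and Il1b had 0 counts in every library, which allows up to 0.173 CPM in replicate 1, 0.189 CPM in replicate 2, and 0.180 CPM in replicate 3. Il4 had 18, 20 and 35 counts, or 1.04, 1.26 and 2.10 CPM, a value that reached 1 CPM in every library and was highest in replicate 3. Other alarm and inflammatory products were also low: Il6 had 9, 2 and 7 counts, Il33 had 10, 16 and 13 counts, and Tslp, the epithelial alarmin gene, had 24, 19 and 12 counts. Csf1, the macrophage growth factor gene, had 689.9, 664 and 710.3 CPM, and the prostaglandin synthase genes Ptgs1 and Ptgs2 had 313 ± 6.88 and 138 ± 3.94 CPM.

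Among 36 chemokine genes, 12 reached 1 CPM in every library and 19 stayed at 3 or fewer counts. Over all protein-coding genes these shares were 50.7% and 40.2%. Cxcl12, the stromal chemokine gene that retains leukocytes, had 337, 355 and 338 CPM, and Cx3cl1, of the membrane-bound chemokine fractalkine, had 149.97, 142 and 148 CPM. Ccl2 and Ccl7, of monocyte-attracting chemokines, had 74.3, 67.5 and 61.04 CPM and 37.1, 41.8 and 34.6 CPM. Per length over all annotated exons, Ccl2 at 179 ± 17.1 TPM and Ccl7 at 143 ± 12.5 TPM stood beside Cxcl12 at 127 ± 2.55 TPM. Ccl2 was above Cxcl12 in each library on this scale, the reverse of the order by CPM, and the order may differ with another length. Cxcl1, a neutrophil-attracting chemokine gene, had 7.61, 7.06 and 6.77 CPM, whereas Cxcl2 and Cxcl3 had no count.

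The other chemokines that the study silenced one by one had few counts. Ccl8, a ligand of several CC receptors, had 24, 10 and 26 counts, or 1.19 ± 0.493 CPM, and fell below 1 CPM in replicate 2. Ccl11, the eotaxin gene, had 7, 3 and 9 counts, and Ccl17, a ligand of CCR4, had 20, 27 and 25 counts, or 1.45 ± 0.277 CPM, and reached 1 CPM in every library. Of 22 chemokine receptors, 1 reached 1 CPM in every library, beside 50.7% of all protein-coding genes. It was Ackr3, a scavenging receptor gene for CXCL12, with 15.7, 20.5 and 17.7 CPM. Ccr3, Cxcr4, and Cxcr2 had no count.

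Receptors for other signals were more numerous. Il1rl1, the gene of the IL-33 receptor and of its soluble form, had 542, 587 and 532 CPM. Il6st, the shared receptor chain of the IL-6 family, had 432, 423 and 447 CPM and Osmr, the oncostatin M receptor gene, had 113, 111 and 116 CPM. The interferon receptor genes Ifnar1 and Ifnar2 had 98.02, 88.8 and 94.9 CPM and 19.7, 21.2 and 20.2 CPM. The TGF-β receptor genes Tgfbr1 and Tgfbr2 had 39.1 ± 2.76 and 221 ± 4.29 CPM. Among growth factor receptors, the TAM family kinase gene Axl had 1037, 1028 and 1084 CPM and Fgfr1 had 552, 501 and 547 CPM. The receptor genes Kit, Erbb4, Il7r, and Il10ra had no count. Of the 19 pattern recognition receptors, 10 reached 1 CPM in every library, near the 50.7% of all protein-coding genes. Tlr2 had 42.03, 38.8 and 38.04 CPM, Tlr3 had 18.05, 19.6 and 23.2 CPM, and Tlr4 had 15.2, 14.9 and 14.9 CPM.

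The 3 libraries differed little. The common biological coefficient of variation was 5.03%. Among 9688 genes with a mean of 10 CPM or more, the median coefficient of variation (CV) between libraries was 4.67% and the 95th percentile was 12.6%. The CV expected from counting error alone had a median of 3.46%. That value was computed from mean counts and is not the median that CVs of 3 libraries would have. Genes with more counts were steadier: the median CV was 5.34% from 10 to 100 CPM, 3.24% from 100 to 1000 CPM, and 2.33% at 1000 CPM or more. The CV expected from counting error also fell, with medians of 4.12, 1.90 and 0.640% in these classes. Each pair of libraries differed by more than counting noise, for which a chi-square statistic per degree of freedom near 1 would be found, and the libraries were counted as 3 samples. The chi-square statistic per degree of freedom was 3.39 between replicates 1 and 2, 2.97 between replicates 1 and 3, and 4.64 between replicates 2 and 3.

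A CV of 20% or more was reached by 97 of the 9688 genes, and for 62 of them replicate 3 was the library farthest from the middle value. Over all 9688 genes replicate 3 was farthest for 3107 and replicate 2 for 3912, and both pairs with replicate 2 had the larger chi-square values. Of those 97, 46 were highest in replicate 3, and 25 of the 46 are on a list of 47 interferon-stimulated genes. Another 34 were lowest in replicate 3, and 26 of these were pseudogenes. Among the 12665 genes at 1 CPM or more in every library, 1092 (8.62%) were pseudogenes and 46 are on the interferon list. The corresponding numbers at 10 CPM or more are not given here. The interferon list was written after these values were seen, and its count is a description.

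Among the 10 genes with the largest CV, 6 were highest and 4 lowest in replicate 3. Ifit3b, of an interferon-induced antiviral protein, had 10.4, 13.2 and 22.8 CPM. Rnf213, of a large ubiquitin ligase that interferon induces, had 120.2, 122 and 235 CPM. Slfn8 had 12.3, 14.1 and 23.4 CPM. Of the immunity-related GTPases, Iigp1 had 12.1, 15.9 and 25.3 CPM, Iigp1c had 10.4, 12.9 and 20.2 CPM, and Igtp had 14.01, 17.3 and 27.01 CPM. The other 4 genes, Tpt1-ps5, Gm13408, Gm9396, and Atp6-ps, were pseudogenes and lowest in replicate 3, for example Tpt1-ps5 with 21.6, 26.2 and 10.4 CPM.

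**Figure D5:**
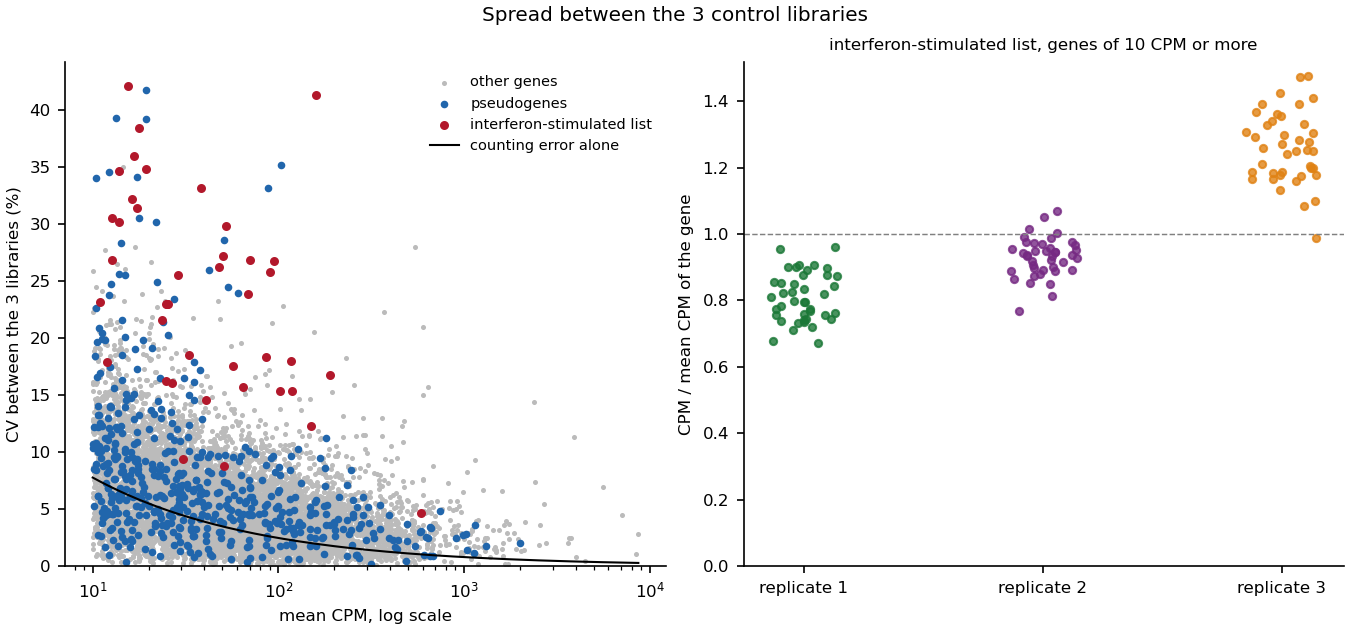
The left panel plots the CV between the 3 libraries against mean CPM on a log axis for 9688 genes, with the interferon-stimulated list in red, pseudogenes in blue, and the CV expected from counting error alone as a line. The right panel plots the CPM in each library divided by the mean of the gene, with 1 point per gene and library, for the list members of 10 CPM or more, and the points of replicate 3 lie mostly above 1.

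Of the 47 listed genes, 46 reached 1 CPM in every library, and 44 of these 46 (95.7%) were highest in replicate 3, compared with 3864 of all 12665 genes at that level (30.5%). Their median log2 ratio of replicate 3 over the mean of replicates 1 and 2 was 0.52, and that of all 12665 genes was -0.01. Because the list was written after these values were seen, both comparisons only describe it and test nothing. Isg15, of the ubiquitin-like modifier that interferon induces, had 72.01, 89.2 and 122 CPM, and Ifit1 had 55.8, 63.3 and 91.5 CPM. Summed over the list, the level was 2286, 2568 and 3187 CPM. The mean of the summed level was 2680 CPM over 3 libraries and 2427 CPM without replicate 3. B2m, of the light chain of MHC class I, is on the list and was steady, with 562, 615 and 578 CPM. Interferon genes were not detected: Ifnb1 had 0, 0 and 2 counts, and Ifng and the listed genes for interferons α and λ had none. Why replicate 3 stood apart in these genes was not tested.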

How the data were processed

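Polyadenylated RNA of 3T3-L1 cells was extracted with the PureLink kit and made into Illumina stranded mRNA libraries. The submitters' processing notes name STAR, featureCounts, and GRCm39, with no versions. Per the deposited table, values are raw counts, whole numbers of reads per Ensembl gene, without normalization by the authors. The 3 control columns were used and 9 columns of other conditions were not. The members and gene lists were chosen with earlier results of these data known.

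CPM used the total count of each library. Exon lengths and biotypes came from GENCODE M21 (GRCm38), matched by Ensembl identifier for 52000 of 56941 genes. The table named 33673 genes, and 53184 had a symbol after a table of gene names was added. Shared sequence is the percentage of a gene's transcript 50-mers found in transcripts of other genes. The biological coefficient of variation was the square root of the common dispersion from edgeR 4.0.16 (R 4.3.3, filterByExpr, TMM, intercept only). All other values were computed in Python 3.11.15 with pandas 2.3.3 and numpy 2.4.6, and plotted with matplotlib 3.10.9. Simulated control libraries of 56941 genes with coefficients of 2, 5, and 10% returned 1.95, 4.94, and 10.0%. Named genes were the 25 with the highest CPM, the 10 with the largest CV at 10 CPM or more, the members of 38 lists, and genes among the 100 with the most counts with TATAAA 40 to 20 bases before the start. An interferon list of 47 genes, a list of 7 interferon genes, and the genes around Mdm2 and the parents of pseudogenes were added after values were seen.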

Additional observations from a re-analysis of the deposited data

How the results depend on the processing

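Alternatives were other scalings (TMM, DESeq2 1.42.0 size factors, and upper quartile), other detection limits, other filters, and each library left out in turn. Genes at 1 CPM or more in every library numbered 12665 under TMM and under DESeq2 factors, 13585 at 0.5 CPM, 13365 at 10 counts, 14941 above 3 counts, and 13062 by the mean. The match under TMM was fixed: with factors of 1.000, 1.005 and 0.994, the limit stayed between the same whole counts in each library. Without 1 library, this number ranged from 12770 to 12828, and that of genes with 0 counts from 34138 to 34302. For named genes, scaling moved mean CPM by -0.57 to 0.64%. The matrix share was 4.10% of counts but 2.19% of TPM. The share of genes matched by symbol as ribosomal proteins rose from 2.14 to 3.29% when pseudogenes matched by name were added, an alternative chosen after seeing the data. The biological coefficient of variation was 5.03%, and ranged from 4.43 to 5.86% with 1 library left out, with the largest value without replicate 1 and the smallest without replicate 2. The motif share among the 100 most abundant genes fell from 10.7 to 2.67% in the narrower window. Leaving out genes that share 50% or more of their sequence raised the overlap of the 2 top 25 lists from 9 to 12, also chosen after seeing the data, and with top 100 lists it was 43. With the longest transcript in place of all exons, the overlap of the top 25 lists was 11. No paired analysis was possible because no result comes from a test. Detection limits cover counting error only.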

Other observations

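Of 39 Hox genes, which record position along the body axis, 18 reached 1 CPM in every control library. The share over all protein-coding genes was 50.7%, so the count does not set these genes apart. Hoxd8, Hoxa7, Hoxa3, and Hoxd9 had the most counts, with Hoxd8 at 29.1, 28.2 and 25.3 CPM, Hoxa7 at 18.5, 17.8 and 20.1 CPM, Hoxa3 at 15.5, 11.6 and 13.8 CPM, and Hoxd9 at 11.1, 13.4 and 11.1 CPM. Hoxa11, Hoxa13, Hoxd11, Hoxd12, and Hoxd13 had no count. The posterior genes Hoxc13 and Hoxb13 had 4.96, 5.10 and 5.15 CPM and 2.02, 1.26 and 1.32 CPM. Hoxa7, Hoxa3, and several others overlap another gene when strand is ignored.

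Of 24 imprinted genes, 12 reached 1 CPM in every library, near the 50.7% of all protein-coding genes. Within the cluster that holds Dlk1, levels diverged: Dlk1 had 1665, 1577 and 1688 CPM, whereas Meg3 and Rian, the noncoding RNA genes expressed from the other parental copy, had 0, 1 and 0 and 6, 6 and 4 counts. Of the pair H19 and Igf2, H19 had 13.8, 11.8 and 11.7 CPM and Igf2 had 0, 1 and 0 counts. Peg10 had 116, 119 and 113 CPM and Igf2r had 291, 262 and 329 CPM.

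The X inactivation gene Xist had 0, 0 and 1 counts and the Y-linked genes Ddx3y, Eif2s3y, Kdm5d, and Uty had none. The 1545 genes of the Y chromosome together held 0.000390 ± 0.0000667% of the counts, and 4 of them had any count. Genes of the X chromosome held 3.85 ± 0.0205% of the counts.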
